A study of Mus musculus with 9 samples.

Results

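Ass1, which encodes argininosuccinate synthase, and 9 other genes of amino acid metabolism were followed across regulatory T cells (Treg cells) that lacked the transcription factors Thpok and LRF and across the 2 kinds of control cells of the same study. The 10 genes are Ass1, Asl, Gcat, Shmt1, Shmt2, Phgdh, Psat1, Slc7a5, Slc3a2 and Asns, of 13698 genes in the deposited table, and all 10 were present in it. They were chosen by name with earlier results on the log2 CPM values of these libraries known, so their levels and differences are given as a description, without a test.

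The study sequenced RNA from 9 libraries of mouse Treg cells, 3 in each of 3 groups, sorted from spleen and lymph node of female mice on a C56Bl6/129 mix background. The deficient cells were YFP+MHCII- cells of LRFffThpokff Foxp3 Cre-YFP/X mice numbered 142114, 232614 and 432614, in which Cre recombinase is made from the Foxp3 gene together with a yellow fluorescent protein and so deletes the floxed genes in cells that use that Foxp3 copy. The genetic controls were YFP+MHCII- cells of WT Foxp3 Cre-YFP/X mice numbered 124, 8619 and 8800, which carry the same Cre allele with intact Thpok and LRF genes. The animal controls were YFP-MHCII-CD25hi cells of mice 142114, 232614 and 432614 themselves, that is, cells that use the unmodified Foxp3 copy and so keep Thpok and LRF. Thus the deficient cells and the genetic controls share the Cre allele and the gate but not the animals, whereas the deficient cells and the animal controls share the animals but not the gate or the active Foxp3 allele. The labels give no age.

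Values are given as CPM, a scale on which each library sums to nearly the same total, computed back from the deposited log2 values. The values were taken to be quantile-normalized, since the lowest (-7.77) and highest (13.42) log2 values were the same in all 9 libraries. A value then depends on the rank of the gene within its library and is not its own read count scaled to that total. Read totals of the libraries are not part of the table, so the depth behind each value is unknown and the errors given are those between libraries. The deletion was checked on Zbtb7b, the gene of Thpok, which had 0.26 ± 0.11 CPM in deficient cells, against 115 ± 30.3 CPM in genetic controls and 93.7 ± 15 CPM in animal controls (SD, n = 3 each). Zbtb7a, the gene of LRF, had 89.5 ± 12.6 CPM in deficient cells, 90.3 ± 21 CPM in genetic controls and 112 ± 19.3 CPM in animal controls, so total Zbtb7a reads did not mark its deletion, and the exons behind them are not resolved in the table. Of the 8 markers of the labelled cell type, Cd3e was present in all libraries. Cd4 had 355 ± 25.7 CPM in deficient cells, against 866 ± 175 CPM in genetic controls and 889 ± 87.7 CPM in animal controls. In the same order, Il2ra averaged 473, 676 and 770 CPM, Ikzf2 316, 311 and 440 CPM, and Ctla4 55.7, 52.7 and 45.5 CPM. Cd3d averaged 737, 732 and 804 CPM, and Cd3g 778, 810 and 899 CPM. The summed level of all 8 was 3800 to 4120 CPM in deficient libraries. It was 4110 to 4740 CPM in genetic controls and 5750 to 6510 CPM in animal controls. Foxp3 had 32.2 ± 5.02 CPM in deficient cells, 33.3 ± 7.38 CPM in genetic controls and 905 ± 132 CPM in animal controls. Cd8a, a marker of the CD8 lineage, had 367 ± 19.9 CPM in deficient cells, against 21.9 ± 7.56 CPM in genetic controls and 34.5 ± 16.1 CPM in animal controls. The summed level of the 3 B cell markers in the table, of 6 listed, was 52.8 to 71.7 CPM in deficient libraries, 13.7 to 28.5 CPM in genetic controls and 50.2 to 94.9 CPM in animal controls. The summed level of the 3 myeloid markers in the table, of 10 listed, was 9.68 to 58.5 CPM in deficient libraries, 12 to 319 CPM in genetic controls and 1.07 to 3.12 CPM in animal controls. Like Ass1, the summed level of the 4 plasma cell markers was lower in every deficient library, at 22.3 to 59.4 CPM, against 59.7 to 175 CPM in genetic controls, a narrow gap, and 70.3 to 180 CPM in animal controls. Of these markers, Irf4 averaged 22.4, 58.7 and 58 CPM in deficient cells, genetic controls and animal controls, and Prdm1 0.75, 11 and 37.1 CPM. Igj (16.4, 29.5 and 7.56 CPM) and Sdc1 (2.08, 1.4 and 12.5 CPM) did not lie below both controls. Pecam1, the 1 stromal and endothelial marker in the table of 6 listed, was also lower in every deficient library. It had 64.3 to 148 CPM in deficient libraries, 226 to 243 CPM in genetic controls and 167 to 220 CPM in animal controls. The ranges of the 2 NK cell and the 6 erythroid and platelet markers in the table overlapped between deficient cells and genetic controls. Against animal controls the NK cell range overlapped too. The erythroid and platelet sum did not, at 0.833 to 40.8 CPM in deficient libraries and 0.0817 to 0.465 CPM in animal controls. The part of these markers in the results below was not tested. In RNA from sorted populations, fewer cells that express a gene and less of its RNA per cell cannot be told apart.

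Arginine can be rebuilt from citrulline in 2 steps, of which argininosuccinate synthase (Ass1) joins citrulline to aspartate and argininosuccinate lyase (Asl) splits the product into arginine and fumarate. Serine is made from a glycolytic intermediate through Phgdh and Psat1, and serine hydroxymethyltransferases (Shmt1 in the cytosol, Shmt2 mainly in mitochondria) turn serine into glycine and load folate with one-carbon units that dividing lymphocytes use for nucleotides. Large neutral amino acids enter activated T cells through a transporter that pairs the light chain Slc7a5 with the heavy chain Slc3a2, also known as CD98, and that supply is sensed by the kinase complex mTORC1.

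Ass1 RNA was several-fold lower in deficient cells than in either control. The 3 deficient libraries had 9.3, 20.5 and 18.2 CPM (mice 142114, 232614 and 432614), against 80.2, 108 and 101 CPM in genetic controls (mice 124, 8619 and 8800) and 116, 122 and 113 CPM in animal controls (mice 142114, 232614 and 432614). All 3 deficient libraries lay far below the lowest control library, that of mouse 124, and the deficient cells overlapped with neither control. The means were 16 ± 5.92 CPM in deficient cells, 96.7 ± 14.7 CPM in genetic controls and 117 ± 4.57 CPM in animal controls (SD, n = 3 each), a mean level 6.04-fold lower than in genetic controls and 7.33-fold lower than in animal controls. On the log2 scale the difference was -2.66 ± 0.33 against genetic controls and -2.95 ± 0.33 against animal controls (SE, shared spread of all 9 libraries). Within each mouse the difference from its own animal control was -3.64, -2.58 and -2.64 on the log2 scale.

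The genetic controls also had less Ass1 RNA than the animal controls, by a smaller margin. All 3 genetic control libraries lay below all 3 animal control libraries, with a log2 difference of -0.29 ± 0.33 (SE). The difference is smaller than this standard error, which pools the spread of all 9 libraries. The SD of the log2 values was 0.23 in genetic controls and 0.06 in animal controls. It was 0.62 in deficient cells, which are not part of this difference.

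Asl, the enzyme that follows Ass1 in arginine synthesis, showed no such gap. Deficient libraries had 37.4, 29 and 21.9 CPM, against 38.4, 20 and 35.4 CPM in genetic controls and 51.7, 38 and 17 CPM in animal controls. The 3 groups overlapped fully, and the spread within the animal controls was wider than any difference between means. The log2 difference was -0.07 ± 0.49 against genetic controls and -0.16 ± 0.49 against animal controls (SE). With this standard error a change of moderate size in Asl RNA would not have been detectable. Arg1, the arginase that splits arginine, was at the lowest value of the table in all 3 deficient libraries. It was also at that value in animal control 232614 and genetic control 8800, and at or under 2.24 CPM in every control library.

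**Figure D1:**
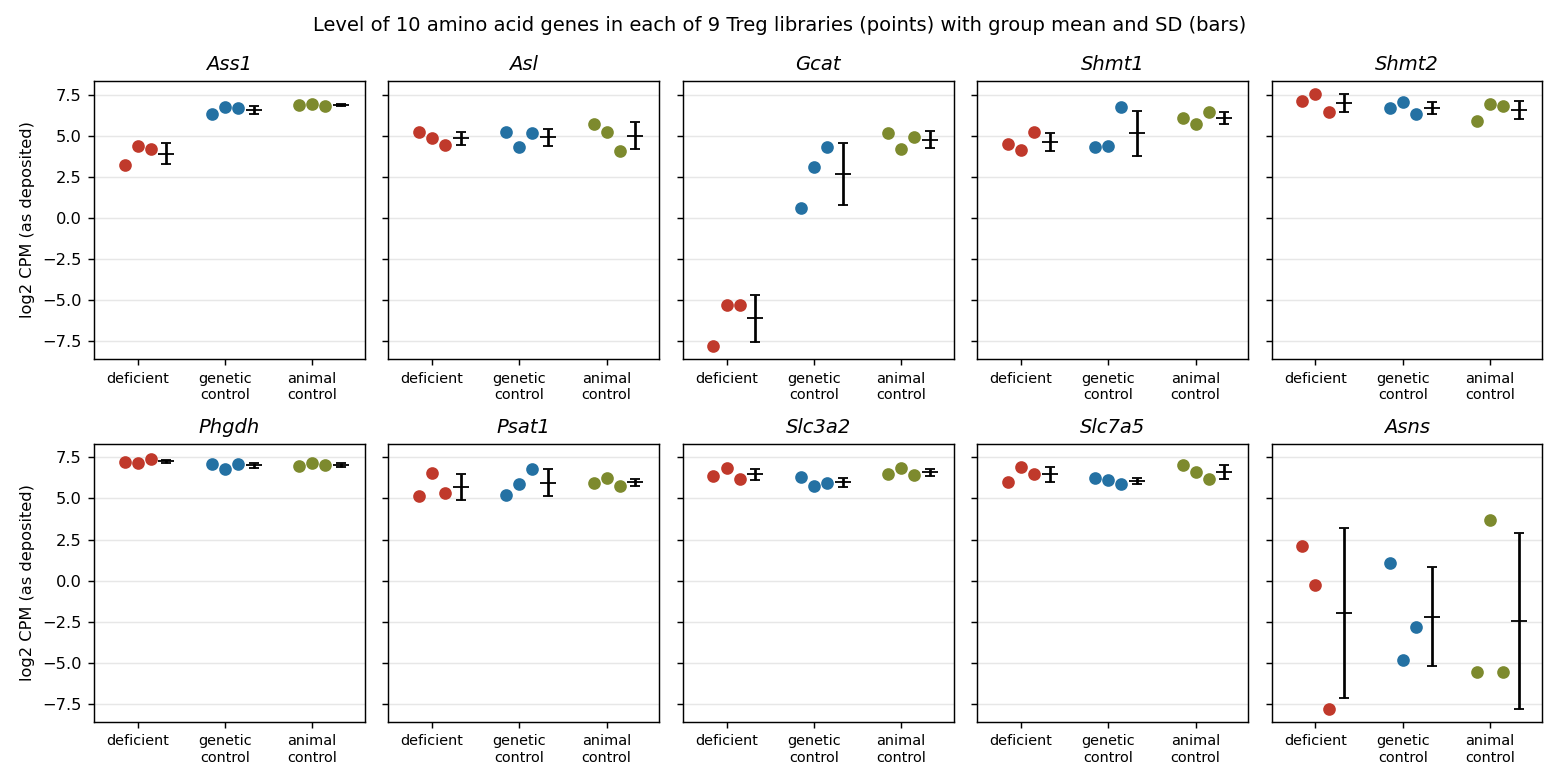
RNA level in log2 CPM, as deposited, of the 10 amino acid metabolism genes, with deficient cells on the left of each panel, genetic controls in the middle and animal controls on the right; each point is a library, and the bar beside each group is its mean and SD of the log2 values (n = 3). Ass1 ranges over 9.3 to 20.5 CPM in deficient cells and over 80.2 to 122 CPM in the 6 control libraries, and Gcat lies at or next to the lowest value of the table in all 3 deficient libraries.

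Gcat, the mitochondrial glycine C-acetyltransferase that completes the breakdown of threonine to glycine, was at the bottom of the table in deficient cells. Its values there were 0.00457, 0.026 and 0.026 CPM, against 1.56, 8.56 and 20 CPM in genetic controls and 35.6, 18.2 and 30.7 CPM in animal controls. The first of the deficient values is the lowest that the table holds, shared by 1371 genes of that library, and the other 2 are the next step above it, shared by 352 and 343 genes. The deficient cells did not overlap with either control, while the genetic controls ranged from 1.56 to 20 CPM among themselves and overlapped with the animal controls. Means were 0.0189 ± 0.0124 CPM in deficient cells, 10 ± 9.28 CPM in genetic controls and 28.1 ± 8.94 CPM in animal controls (SD, n = 3 each). Because a fold against values at the floor is set by the floor, the difference is given on the log2(CPM + 1) scale, where it was -2.97 ± 0.82 against genetic controls and -4.79 ± 0.82 against animal controls (SE), a scale that understates changes of low genes. The annotation holds 2 gene models under the symbol Gcat, and no source used here says which of them the authors counted.

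The promoters of these 2 genes are shown because Ass1 and Gcat were the members whose deficient libraries lay below every control library of both kinds. Ass1 lies on the plus strand at chr2:31470207-31520672 and Gcat on the plus strand at chr15:79030874-79038353 (GRCm38). The sequences run 5′ to 3′ from 250 bases before to 50 bases after the start of the gene in RefSeq (GRCm38.p6), Ass1 over chr2:31470020-31470319 and Gcat over chr15:79030624-79030923. Capitals mark CACGTG, an E-box, which reads the same on both strands.
Ass1: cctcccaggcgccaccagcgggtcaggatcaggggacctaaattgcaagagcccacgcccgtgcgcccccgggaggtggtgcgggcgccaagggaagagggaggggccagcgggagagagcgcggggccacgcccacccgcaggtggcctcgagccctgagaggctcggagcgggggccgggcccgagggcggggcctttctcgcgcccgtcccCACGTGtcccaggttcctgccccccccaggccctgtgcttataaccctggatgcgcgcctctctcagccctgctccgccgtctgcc
Gcat: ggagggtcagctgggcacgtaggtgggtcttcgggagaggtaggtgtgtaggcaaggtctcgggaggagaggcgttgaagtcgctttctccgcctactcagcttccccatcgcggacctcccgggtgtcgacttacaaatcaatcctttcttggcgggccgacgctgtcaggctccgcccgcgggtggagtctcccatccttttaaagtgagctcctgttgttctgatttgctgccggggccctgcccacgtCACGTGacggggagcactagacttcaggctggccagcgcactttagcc

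The E-box was searched after the values of the genes were known, so its presence in both is a description. CACGTG occurred in 7.15% of all 32851 RefSeq promoters of this length and, of the 8 members with a promoter in the table, in Ass1 and Gcat. The Ass1 window held 74.0% G and C and the Gcat window 61.3%, against a median of 52.7% over all promoters. The motif TGATGNAAN, the amino acid response element bound by ATF4 and C/EBP proteins, was searched on both strands and occurred in 3.95% of promoters and, among the members, in that of Asns. TTTCGCGC, an E2F-type motif, was also searched on both strands after the values were known and occurred in 0.32% of promoters and in none of the members'. Asl and Slc7a5 had no entry.

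Of the serine hydroxymethyltransferases, the cytosolic Shmt1 was lower in deficient cells than in animal controls, while Shmt2 overlapped between all groups. Shmt1 (chr11:60788104-60811718, minus strand) had 22.7, 17.9 and 37.5 CPM in deficient cells, against 19.9, 20.5 and 107 CPM in genetic controls and 66.9, 52.8 and 85.7 CPM in animal controls. The deficient libraries all lay below the animal controls but overlapped with the genetic controls, among which mouse 8800 stood far above the other two. The log2 difference was -1.44 ± 0.62 against animal controls and -0.51 ± 0.62 against genetic controls (SE), and within mice it was -1.56, -1.56 and -1.19. Against genetic controls the sign of the Shmt1 difference rested on mouse 8800, since leaving that library out gave 0.29 and leaving out any other single library gave between -0.92 and -0.27. Of the exonic bases of Shmt1, 4.7% are shared with Smcr8, and reads from them cannot be assigned without strand.

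Shmt2 (chr10:127517123-127522444, minus strand), the mitochondrial enzyme, had 136, 182 and 85.6 CPM in deficient cells, against 103, 134 and 81.8 CPM in genetic controls and 60.4, 120 and 113 CPM in animal controls. All groups overlapped. The means were 135 ± 48.3 CPM in deficient cells, 106 ± 26.4 CPM in genetic controls and 97.8 ± 32.5 CPM in animal controls (SD, n = 3 each), and the log2 differences of 0.30 ± 0.36 and 0.46 ± 0.36 (SE) against genetic and animal controls were close to their errors. The mice did not move one way, as the within-mouse differences were 1.17, 0.6 and -0.4 on the log2 scale for mice 142114, 232614 and 432614.

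The serine synthesis genes differed less from either control than Ass1 did. Phgdh (chr3:98313170-98339990, minus strand), the first enzyme of the pathway, had 148, 144 and 165 CPM in deficient cells, against 139, 112 and 136 CPM in genetic controls and 126, 145 and 129 CPM in animal controls. Every deficient library lay above every genetic control, with a log2 difference of 0.24 ± 0.17 (SE), while the deficient and the animal control libraries overlapped with a difference of 0.20 ± 0.17. Reads of the pseudogene Phgdh-ps1 may be split with Phgdh, depending on a counting step that is not given. Psat1 (chr19:15904678-15947337, minus strand), the next enzyme, had 35.8, 95.3 and 40.9 CPM in deficient cells, against 36.7, 58.5 and 113 CPM in genetic controls and 62, 74.8 and 54.3 CPM in animal controls. The Psat1 libraries overlapped throughout, with log2 differences of -0.27 ± 0.48 and -0.28 ± 0.48 (SE) against genetic and animal controls.

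For both transporter chains the genetic controls had the lowest mean. Slc3a2 (chr19:8706882-8723369, minus strand), the heavy chain, had 82, 114 and 72.7 CPM in deficient cells, against 77.6, 53.4 and 62.1 CPM in genetic controls and 89.7, 116 and 84.5 CPM in animal controls. The deficient cells overlapped with both controls, and only the genetic controls lay wholly below the animal controls. The log2 difference of Slc3a2 was 0.47 ± 0.26 against genetic controls and -0.12 ± 0.26 against animal controls (SE), and genetic controls differed from animal controls by -0.59 ± 0.26. Within mice the deficient cells and their own animal controls differed by -0.13, -0.03 and -0.22 on the log2 scale.

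Slc7a5 (chr8:121881150-121907694, minus strand), the light chain that carries the amino acid, had 63.8, 122 and 89.7 CPM in deficient cells, against 74.8, 70.1 and 59.5 CPM in genetic controls and 130, 99 and 72.6 CPM in animal controls. The genetic controls were again the lowest on average, but the groups overlapped. The log2 difference of Slc7a5 was 0.39 ± 0.31 against genetic controls and -0.14 ± 0.31 against animal controls (SE), with within-mouse differences of -1.03, 0.31 and 0.3.

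Asns (chr6:7675169-7693254, minus strand), the enzyme that makes asparagine from aspartate and glutamine, was barely detected. Its values were 4.35, 0.827 and 0.00457 CPM in deficient cells, 2.12, 0.0357 and 0.14 CPM in genetic controls and 0.0215, 13.1 and 0.0213 CPM in animal controls. Every group held libraries near the floor of the table, the groups overlapped, and no fold is given.

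Counted over the 10 genes, 3 did not overlap between deficient cells and genetic controls, Phgdh above and Ass1 and Gcat below, where 15.7% of all 13698 genes did not overlap. Between deficient cells and animal controls, Ass1, Gcat and Shmt1 did not overlap, all 3 lower in deficient cells, against 15.9% of all genes. Between genetic and animal controls, Ass1 and Slc3a2 did not overlap, both lower in genetic controls, against 10.4% of all genes. Since the genes were chosen on these values, nothing is read from these shares. The median log2 difference over the 10 genes was 0.07 against genetic controls, -0.15 against animal controls and -0.19 between genetic and animal controls, beside medians over all genes of 0.036, 0.037 and -0.017. The comparisons share libraries: the deficient cells enter the first and the second, and each control group enters 2 of the 3.

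**Figure D2:**
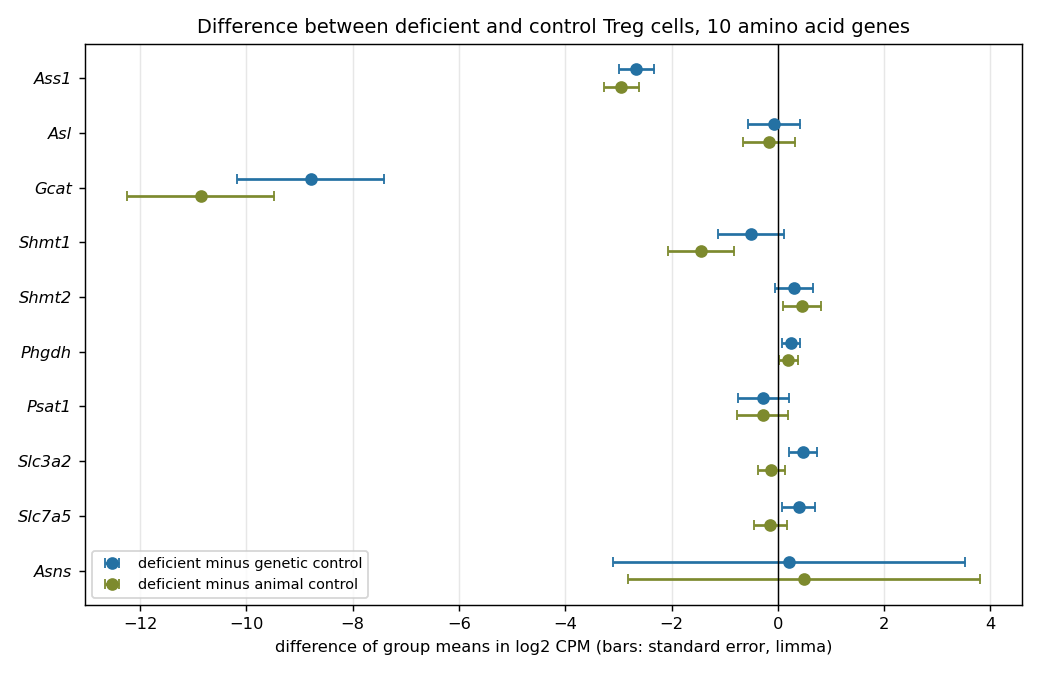
Difference of group means in log2 CPM for each of the 10 amino acid metabolism genes, for deficient cells minus genetic controls and deficient cells minus animal controls; bars are standard errors from limma and the line marks 0. Ass1 lies at -2.66 and -2.95, the genes other than Ass1, Gcat and Asns lie between -1.44 and 0.47, and the positions of Gcat and Asns depend on the lowest values of the table.

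Divided by the length of all annotated exons of a gene together, the levels can be ranked between genes. The order depends on that length, which may exceed that of the transcript made. In deficient cells the order of mean CPM per kilobase was Phgdh (61.3), Shmt2 (43.3), Slc3a2 (25.4), Slc7a5 (24.8), Psat1 (13.5), Shmt1 (6.7), Ass1 (6.63), Asl (6.09), Asns and Gcat. In that order, Slc3a2 and Slc7a5 differed by less than their spread, as did Shmt1, Ass1 and Asl. In genetic controls Ass1 ranked 2 with 40 ± 6.08 CPM per kilobase, between Phgdh with 51.9 and Shmt2 with 34.2. In animal controls Ass1 also ranked 2, with 48.6 ± 1.89 CPM per kilobase, between Phgdh with 53.5 and Shmt2 with 31.4. In deficient cells Ass1 ranked 7 at 6.63 ± 2.45 CPM per kilobase, while Phgdh and Shmt2 ranked 1 and 2 there. In deficient cells the level of Ass1 per kilobase was near that of its partner Asl, but this depends on the length used. The annotated exons together held 2414 bases for Ass1 and 4831 for Asl, and the undivided means were 16 and 29.4 CPM. Asl itself had 6.09 ± 1.61 CPM per kilobase in deficient cells, 6.47 ± 2.05 in genetic controls and 7.36 ± 3.62 in animal controls.

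Other genes followed these patterns over the 9 libraries. By Pearson correlation of log2 CPM with Ass1, among 7251 genes compared, the closest were Wdr83os (0.978), Gpx1 (0.975), Tmem154 (0.975), Nrp1 (0.973) and Ptpn1 (0.972). The 9 points share their groups, and the value is high for any gene that is low in deficient cells and even in the controls, so it is given as a description. Nrp1, the semaphorin co-receptor that marks many Treg cells, averaged 78.4 ± 27.9 CPM in deficient cells, 398 ± 26.7 CPM in genetic controls and 744 ± 157 CPM in animal controls (SD, n = 3 each). Gpx1, a glutathione peroxidase, averaged 233 ± 26.8 CPM in deficient cells, 397 ± 19.8 CPM in genetic controls and 387 ± 38.2 CPM in animal controls. Ptpn1, a tyrosine phosphatase, moved less, with 266 ± 16.8 CPM in deficient cells, 336 ± 14.7 CPM in genetic controls and 338 ± 10.6 CPM in animal controls.

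Gcat was closest to Ass1 itself (0.984), then to Tmem154 (0.983) and to Capg (0.981). Its deficient values lie at or next to the lowest value of the table, so these correlations depend on that floor. Capg, an actin-capping protein, averaged 131 ± 11.9 CPM in deficient cells, 438 ± 71.4 CPM in genetic controls and 581 ± 69.3 CPM in animal controls. Tmem154 averaged 34.9 ± 10.9 CPM in deficient cells, 142 ± 38.9 CPM in genetic controls and 203 ± 52.9 CPM in animal controls. Shmt2 had lower values of likeness, led by Ncapd3 (0.924), Yars (0.896) and Lysmd3 (0.891), and Slc3a2 was closest to Jmy (0.933), Tjap1 (0.931) and Lrba (0.923). Ncapd3 encodes a condensin subunit and Yars the tyrosyl-tRNA synthetase.

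**Figure D3:**
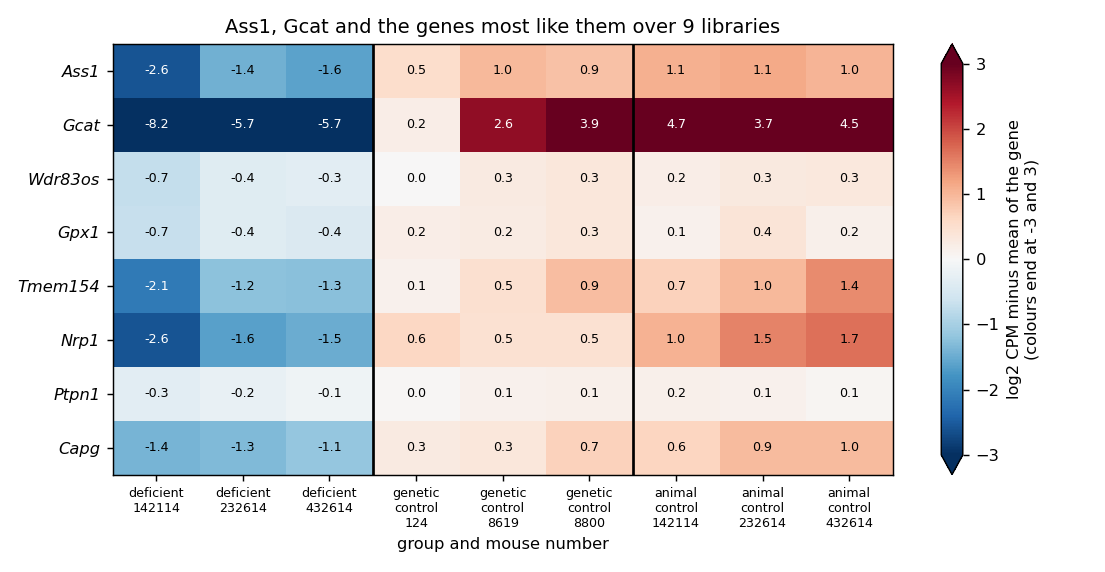
Heat map of log2 CPM minus the mean of the gene over the 9 libraries, for Ass1, Gcat and the genes closest to them (rows), with deficient libraries in the left columns, genetic controls in the middle and animal controls on the right, by mouse number; colours end at -3 and 3, and each cell prints its value. The 3 deficient libraries are the lowest in every row, and the drop is smaller for Ptpn1 than for Ass1.

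The question whether other genes of amino acid metabolism moved with Ass1 was addressed with 11 lists, which held 207 genes of the table and, without the 10 members, 197. None of the 197 passed the test in either direction in any comparison (limma, Benjamini-Hochberg over all 13698 genes, FDR under 0.05). Over all genes, 0.336% were called higher and 0.533% lower in deficient cells against genetic controls, 0.307% higher and 0.584% lower against animal controls (0 genes with the mouse as a fixed block), and 0% higher and 0.0365% lower in genetic against animal controls. At an unadjusted p under 0.05, 18, 21 and 11 of the 197 passed in the 3 comparisons, beside 1455, 1632 and 907 of all genes. Groups did not overlap for 17.3% of the 197 genes against genetic controls and for 15.7% against animal controls, near the 15.7% and 15.9% of all genes. The median log2 difference of the 197 was 0.08 against genetic controls and 0.03 against animal controls. With a median standard error of 0.39 for genes of at least 10 CPM, small or moderate changes could not have been called. Even Flcn of the mTORC1 list, with a log2 difference of 1.17 ± 0.23 (SE) against animal controls, did not pass (limma, adjusted p = 0.0557).

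In the arginine list, where 6 genes besides Ass1 and Asl were tested, Azin1, the antizyme inhibitor that sustains polyamine synthesis, had the lowest p of those with a mean log2 level of at least 10 CPM, the limit for naming a list gene here. It averaged 248 ± 71.1 CPM in deficient cells, 166 ± 20.4 CPM in genetic controls and 149 ± 32.7 CPM in animal controls, with log2 differences of 0.55 ± 0.25 (limma, adjusted p = 0.473) and 0.72 ± 0.25 (limma, adjusted p = 0.278). Every deficient library lay above every control library, but neither difference passed the test. In the polyamine list, Srm, the spermidine synthase, averaged 125 ± 21.5 CPM in deficient cells, 72.4 ± 31.6 CPM in genetic controls and 112 ± 5.69 CPM in animal controls. Its log2 difference was 0.88 ± 0.34 against genetic controls (limma, adjusted p = 0.385). Smox, the spermine oxidase, had the lowest p against animal controls of the polyamine genes above that limit, at 36.4 ± 15.3 CPM in deficient cells and 22.3 ± 14.9 CPM in animal controls (limma, adjusted p = 0.626), and it lay the other way against genetic controls, which had 67.2 ± 10.3 CPM.

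In the serine, glycine and threonine list, 8 genes besides the members were tested. Psph, the phosphatase that completes serine synthesis after Phgdh and Psat1, averaged 55 ± 4.96 CPM in deficient cells, 37.2 ± 6.72 CPM in genetic controls and 38.7 ± 19.5 CPM in animal controls. The log2 difference was 0.58 ± 0.38 (limma, adjusted p = 0.656) against genetic controls and 0.62 ± 0.38 (limma, adjusted p = 0.585) against animal controls, and neither passed.

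The folate and methionine cycle genes, which take up the one-carbon units that Shmt1 and Shmt2 release, had the highest share of non-overlapping genes against genetic controls, 9 of 22 (40.9%, beside 15.7% of all genes), of which 3 were higher and 6 lower in deficient cells. Against animal controls the share was 4 of 22 (18.2%), all 4 lower, which is near the 15.9% of all genes. The median log2 difference was -0.41 against genetic controls and -0.42 against animal controls, and -0.25 and -0.28 over the 16 genes with a mean log2 level of at least 10 CPM. Mthfd2, the mitochondrial enzyme downstream of Shmt2, averaged 52.2 ± 10.3 CPM in deficient cells, 110 ± 17.7 CPM in genetic controls and 74.2 ± 31.7 CPM in animal controls. Its log2 difference was -1.09 ± 0.34 against genetic controls (limma, adjusted p = 0.251) and -0.43 ± 0.34 against animal controls (limma, adjusted p = 0.703). Mat2b, a regulatory subunit of methionine adenosyltransferase, averaged 247 ± 45.5 CPM in deficient cells, 342 ± 41.9 CPM in genetic controls and 333 ± 23 CPM in animal controls (limma, adjusted p = 0.292 and 0.316). The deficient libraries of Mat2b lay below every control library, but no gene of the list passed the test.

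Among 27 other amino acid transporters, Slc38a2, a carrier of small neutral amino acids, averaged 239 ± 53.9 CPM in deficient cells, 143 ± 24.6 CPM in genetic controls and 155 ± 26 CPM in animal controls. The log2 difference was 0.74 ± 0.22 against genetic controls (limma, adjusted p = 0.232) and 0.62 ± 0.22 against animal controls (limma, adjusted p = 0.311), with no overlap with either control. Slc25a44, a mitochondrial carrier of branched-chain amino acids, averaged 24.7 ± 3.91 CPM in deficient cells, 48.5 ± 16.5 CPM in genetic controls and 65.6 ± 16.9 CPM in animal controls (limma, adjusted p = 0.409 and 0.149). Both thus lay on one side of both controls, Slc38a2 above and Slc25a44 below, without passing.

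In the list of aspartate, glutamate and related genes, Gclm, the modifier subunit of the enzyme that starts glutathione synthesis, averaged 18.9 ± 4.17 CPM in deficient cells, 42.7 ± 23.2 CPM in genetic controls and 46.9 ± 5.3 CPM in animal controls. Its log2 difference was -1.06 ± 0.43 (limma, adjusted p = 0.42) and -1.33 ± 0.43 (limma, adjusted p = 0.248) against genetic and animal controls. In branched-chain amino acid breakdown, Bcat2, the mitochondrial transaminase, averaged 61 ± 25.1 CPM in deficient cells and 32.7 ± 17.4 CPM in genetic controls (limma, adjusted p = 0.516). In the list of tryptophan and aromatic amino acid breakdown no gene had a mean log2 level of at least 10 CPM, and none of its 7 genes passed.

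Among 23 aminoacyl-tRNA synthetases, Vars, the valyl-tRNA synthetase, averaged 207 ± 47.3 CPM in deficient cells, 234 ± 12 CPM in genetic controls and 345 ± 38.5 CPM in animal controls. The log2 difference of Vars was -0.75 ± 0.18 against animal controls (limma, adjusted p = 0.11) and -0.20 ± 0.18 against genetic controls (limma, adjusted p = 0.768). Aimp1, a scaffold of the synthetase complex, averaged 69.2 ± 9.01 CPM in deficient cells and 42.7 ± 16.8 CPM in genetic controls (limma, adjusted p = 0.435). Neither gene passed, and the libraries of Aimp1 overlapped.

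Of 18 genes of the integrated stress response, which induces Asns, Psat1 and Phgdh through ATF4 when amino acids run short, none passed. Atf4 itself averaged 45.5 ± 5.51 CPM in deficient cells, 46.9 ± 2.54 CPM in genetic controls and 50.1 ± 29.1 CPM in animal controls. Ddit3, which encodes the stress factor CHOP, averaged 24.8 ± 9.14 CPM in deficient cells, 12.6 ± 3.17 CPM in genetic controls and 18.9 ± 1.47 CPM in animal controls (limma, adjusted p = 0.498 and 0.85). Eif2ak2, the kinase PKR, averaged 19.8 ± 11.4 CPM in deficient cells and 48.9 ± 26.3 CPM in animal controls (limma, adjusted p = 0.461).

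Of 35 genes of mTORC1 and amino acid sensing, which responds to amino acids imported by Slc7a5 and Slc3a2, Flcn came closest to the threshold. Flcn encodes folliculin, a regulator of the Rag GTPases that recruit mTORC1 to lysosomes. Its deficient libraries had 140, 123 and 157 CPM, against 93.3, 122 and 113 CPM in genetic controls and 47.7, 70 and 71.2 CPM in animal controls. The deficient libraries lay above every control library, narrowly so for the genetic controls. The log2 difference was 1.17 ± 0.23 against animal controls (limma, adjusted p = 0.0557) and 0.36 ± 0.23 against genetic controls (limma, adjusted p = 0.643), and 0.81 ± 0.23 for genetic against animal controls (limma, adjusted p = 0.507). Against animal controls the adjusted p of Flcn ranged from 0.0416 to 0.313 over the fits tried (limma). It passed with the mouse as a random block, with genes under 1 or 10 CPM left out and on the log2(CPM + 1) scale, but not with the mouse as a fixed block, where it was 0.313, nor with any library left out. Lamtor2, a subunit of the lysosomal Ragulator complex, averaged 182 ± 27.1 CPM in deficient cells and 128 ± 12.8 CPM in genetic controls (limma, adjusted p = 0.351).

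Of the 20 cell cycle genes tested beside these lists, none passed. Their summed level was 982 to 1140 CPM in deficient libraries, 994 to 1610 CPM in genetic controls and 722 to 1050 CPM in animal controls, and these ranges overlapped.

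**Figure D4:**
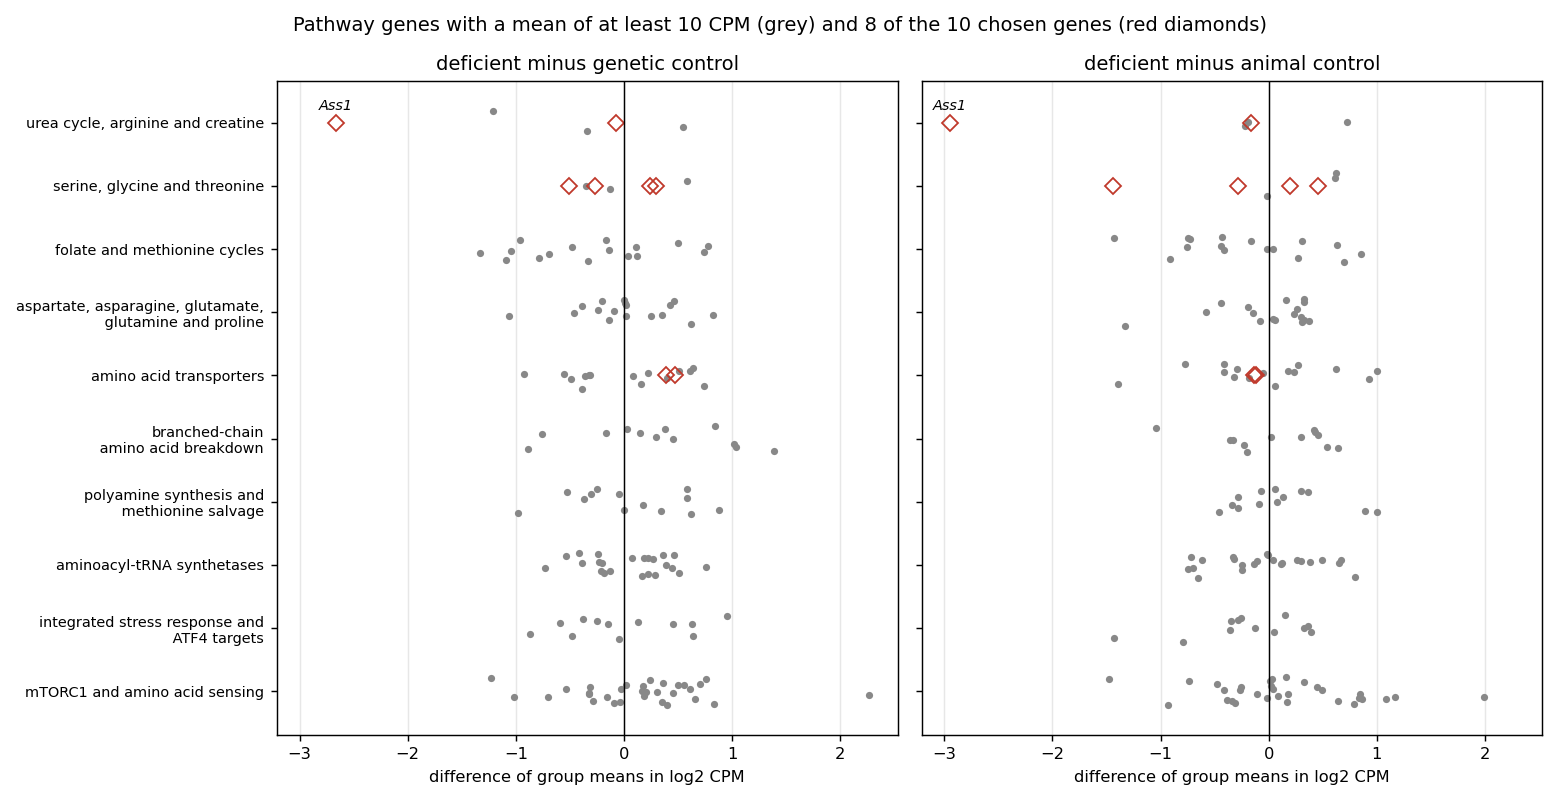
Log2 difference of each pathway gene with a mean of at least 10 CPM (grey points) by list, for deficient cells minus genetic controls and deficient cells minus animal controls, with 8 of the 10 amino acid metabolism genes as red diamonds; means are of log2 values, and Gcat and Asns, whose means are lower, are not drawn. The grey points of each list spread around 0, between -1.33 and 2.27 against genetic controls and between -1.48 and 1.99 against animal controls, and Ass1 lies below all of them in both panels.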

How the data were processed

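The authors deposited a table of log2 values. Per the submitters' processing notes, bcl2fastq 1.8.4, STAR 2.4.0h, mm10 and limma (no version) were used. How reads were counted, and against which annotation, was not given in the sources used here. Kits were RNeasy plus micro, SMARTer Ultra Low Input v3 and Nextera XT, per the labels' protocols. The values themselves were taken to be quantile-normalized log2 CPM, and both the unit and the normalization were read from the values. Linear values of each library summed to between 999252 and 999256, with lowest -7.77 and highest 13.42 in each. Every library was thus taken to have been set to nearly the same distribution. Of 13702 rows, 4 duplicates were dropped. Coordinates and exon lengths came from GENCODE M21, which held 12876 symbols (94.0%).

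All values were fitted as deposited with limma-trend (limma 3.58.1, R 4.3.3, data.table, version 1.17.8), group means over 9 libraries, two-sided, Benjamini-Hochberg over 13698 genes, FDR under 0.05. With 3 libraries against 3, an exact permutation test cannot go below p = 0.1, so none is given. The libraries come from separate mice, except that deficient cells and animal controls share animals by their labels; after subtracting group means, same-mouse libraries correlated at 0.0483, 0.0202 and 0.017. Members, lists, tests and named genes were chosen with earlier results of these data known. Named were the 10 members, Zbtb7b, Zbtb7a, Foxp3, Cd4, Cd8a and cell type markers, the genes most like Ass1 (5), Gcat, Shmt2 and Slc3a2 (3 each), and called list genes or, where a list had none, its lowest-p gene whose mean log2 value was that of 10 CPM or more in each comparison (1 such gene is not reported here); Arg1, Atf4, Paox, Slc1a5 and Slc43a1 were named after their values were seen. The tests were checked on simulated independent normal values with large added shifts. The simulation was not built with shared mice, a floor of values or quantile normalization, so the check does not cover these. Alternatives changed the trend, libraries, mouse block, filter, pseudocount, centring or left out each library.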

Additional observations from a re-analysis of the deposited data

How the results depend on the processing

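On the log2(CPM + 1) scale the difference of Gcat was -2.97 against genetic controls and -4.79 against animal controls. Leaving out each library in turn gave -2.88 to -2.31 and -3.17 to -2.60 for Ass1 against genetic and animal controls, and -0.92 to 0.29 and -1.74 to -1.20 for Shmt1. It also turned the sign of Asl (-0.36 to 0.13), Psat1 (-0.70 to 0.16) and Asns (-1.84 to 3.11) against genetic controls, and of Asl (-0.63 to 0.18), Slc7a5 (-0.37 to 0.10), Slc3a2 (-0.31 to 0.01) and Asns (-1.56 to 3.57) against animal controls. The number of genes changed against genetic controls was 119, with 22 when only the 6 libraries compared were fitted and 48 to 93 with a library left out. Against animal controls it was 122, with 52 from the 6 libraries, 58 to 115 with a library left out, and 0 with the mouse as a fixed replicate block (1395 at an unadjusted p under 0.05). In that replicate block fit 0 pathway genes passed (18 unadjusted). Between genetic and animal controls it was 5, with 32 without the trend, 3 from the 6 libraries and 4 to 10 with a library left out. The cause of these changes was not tested.

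No pathway gene passed in the main comparisons. Against animal controls, 1 (Flcn) passed with the random replicate block, with a mean of at least 1 CPM or at least 10 CPM, and on the log2(CPM + 1) scale. Against genetic controls, 1 passed without the trend, Paox, a polyamine oxidase, at 19.3 ± 4.71 CPM in deficient cells and 2.62 ± 1.16 CPM in genetic controls (limma, adjusted p = 0.0289, against 0.104 with the trend). Leaving out a library gave 0 to 1 there, the 1 being Slc43a1 without genetic control 8619 (limma, adjusted p = 0.00601, against 0.15). Gcat and Asns have no value under the filters on low levels that remove them. A fixed block could not be fitted to the genetic controls, each of which is its own mouse.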

Other observations

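Slc43a1, a carrier of large neutral amino acids, was outside the rule for named genes and was picked after its values were seen. It had 38.7, 46.1 and 32.7 CPM in deficient cells, against 0.021, 8.81 and 0.029 CPM in genetic controls and 2.54, 11.3 and 13.4 CPM in animal controls. Every deficient library lay above every control library, and 2 of the 3 genetic controls were near the floor of the table. The difference did not pass against genetic controls (limma, adjusted p = 0.15) or against animal controls (limma, adjusted p = 0.727). Both tests use the spread of all 9 libraries, so the genetic control values near the floor enter the test against animal controls too.

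Paox, which breaks down acetylated polyamines, had 17.1, 24.7 and 16.1 CPM in deficient cells, against 1.44, 2.68 and 3.75 CPM in genetic controls and 5.05, 3.95 and 5.49 CPM in animal controls. The deficient libraries lay above all 6 control libraries, with log2 differences of 2.96 ± 0.69 against genetic controls (limma, adjusted p = 0.104) and 1.99 ± 0.69 against animal controls (limma, adjusted p = 0.286). Slc1a5, a glutamine and neutral amino acid carrier, lay below all animal controls at 141 ± 43.3 CPM in deficient cells and 238 ± 58.1 CPM in animal controls (limma, adjusted p = 0.269). These genes too were named after their values were seen.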
